A study of Rattus norvegicus with 24 samples.

Results

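Potassium channel genes were described in 24 RNA-seq libraries from rats. The rat gene table held 93 symbols of the Kcn series, the symbols given to potassium channel pores and to their auxiliary subunits. Of these, 66 were kept because they averaged 0.5 CPM or more (CPM are counts scaled to the same total in every library) over the 8 libraries of at least 1 of the 3 count tables, out of 36856 genes in each table. They were 26 of 40 voltage-gated pore (alpha) subunits, 13 of 15 inward rectifiers (Kcnj), 7 of 14 two-pore-domain leak channels (Kcnk), 7 of 8 channels activated by Ca or Na (Kcnma, Kcnn, Kcnt, Kcnu) and 13 of 16 auxiliary subunits (Kcnab, Kcne, Kcnip, Kcnmb). The threshold was reached in both tissues by 35 of the 66, in kidney tables alone by 20 and in the heart table alone by 11. Kcnk13 (0.534 CPM), Kcna6 (0.554 CPM) and Kcnk4 (0.620 CPM) lay just inside the threshold in their highest table, and Kcnk7 (0.369 CPM) and Kcnip1 (0.366 CPM) just outside it.

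The groups held 4 Sprague-Dawley rats each, of 120 to 200 g, and all rats ate a synthetic diet for 7 days. Kidney samples were the papilla, the tip of the inner medulla, and heart samples were a piece of the ventricle. In the first experiment, aldosterone rats received 12 µg of the hormone per day from an osmotic minipump on a diet of 0.4% Na, and control rats ate the same diet. In the second, low-salt rats ate 0.01 to 0.02% Na and high-salt rats 0.4% Na, a content that the labels' protocol also calls a control diet. That experiment gave both kidney and heart samples, and whether one rat gave both is not stated. In every group, replicates 1 and 2 belonged to batch 1 and replicates 3 and 4 to batch 2, as labelled.

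Potassium channels set the resting potential of cells and let K leave down its gradient. In the collecting duct and the thick ascending limb of the kidney, luminal channels secrete or recycle K, and basolateral channels return the K that the Na pump brings in. Aldosterone and a low Na intake are classical stimuli of Na reabsorption and K handling in the distal nephron. In the ventricle, transient outward, delayed rectifier and inward rectifier currents shape the action potential, and each is carried by its own pore genes with their auxiliary subunits.

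Library totals ran from 24299400 to 38318800 counts, so 0.5 CPM was at least 12.1 counts in a library. Collecting duct markers summed to 10399 to 17384 CPM in the 16 kidney libraries and to 0.299 to 43.1 CPM in the 8 heart libraries, and cardiomyocyte markers to at most 5.43 CPM in kidneys, against 61710 to 79605 CPM in hearts. Heart high-salt replicate 2 stood apart with 20.95 CPM of the water channel Aqp2, 47.8 CPM of Umod and 36.0 CPM of Slc12a1, kidney genes of the collecting duct and the thick ascending limb. For renal channels past the rule in both tissues, tissue differences that it moved by over 1.5-fold are given with and without it. The labels describe the rats as female. The 8 aldosterone and control libraries held 239 to 454 CPM of Xist, and the 16 others at most 0.0927 CPM, while in those 16 4 Y-linked genes summed to 144 to 275 CPM. Among the tests below, the difference between the aldosterone and low-salt responses crosses these sets.

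The tissue comparison set kidney high-salt libraries against heart high-salt libraries, on levels normalised jointly over these 8 libraries. At an adjusted p under 0.05 (edgeR quasi-likelihood F test, Benjamini-Hochberg over all genes), 22 of 65 members tested were higher and 29 lower in kidney, 78.5% in all, against 79.9% of the 18175 genes tested (42.4% higher, 37.6% lower). The 2 groups did not overlap for 48 members, 73.8%, against 73.7% of all genes. Both shares lie near their backgrounds, so the tissue difference is described by which channels lay on each side. With library totals in place of TMM scaling, a setting added after the data were seen that moved the median log2 difference of all genes to 1.02, against 0.13, the split was 33 higher and 26 lower, with 48 of the 51 calls kept. Reaching the rule's threshold in 1 tissue alone favours a tissue difference without forcing one, so the levels of such members are given without a test. Among the members of kidney tables alone, the smallest absolute log2 difference was 0.17. In bulk tissue, fewer cells of a type and less RNA per cell cannot be told apart.

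**Figure D1:**
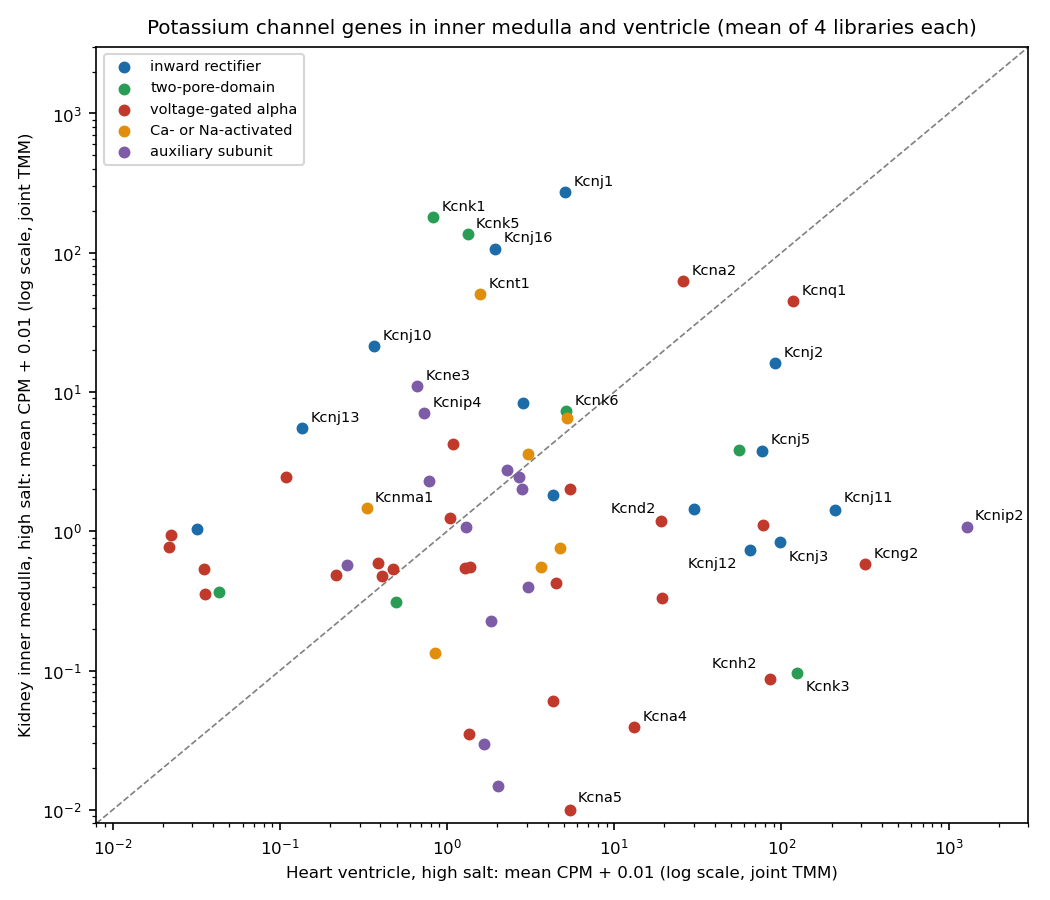
Mean level of each member in kidney high-salt libraries (y axis) against heart high-salt libraries (x axis), both as jointly normalised CPM on log axes, 4 libraries each, coloured by family. Points above the diagonal are higher in kidney: Kcnj1, Kcnk1, Kcnk5 and Kcnj16 lie far above it and Kcnip2, Kcng2, Kcnj11 and Kcnk3 far below it.

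Luminal and basolateral channels from a list of renal channels were among the members on the kidney side. Of that list, Kcnq1 and Kcnn4 lay on the heart side and Kcnmb4 did not pass. Kcne1, also on that list, was too low to be tested, with 1 count over the kidney high-salt libraries, against 163 in heart. Other members, among them Kcnh6, Kcnh7 and Kcnj4, were also higher in kidney, and their tissue levels are not reported here. Kcnj1 encodes ROMK, the luminal channel of the thick ascending limb and distal nephron. It stood at 181, 316, 331 and 259 CPM in kidney high-salt libraries, against 0.407, 19.8, 0 and 0.0494 CPM in heart high-salt libraries. The heart values were all far below the lowest kidney value, and replicate 2 held nearly all of the heart signal. Kcnj16, which forms basolateral channels with Kcnj10, stood at 79.9, 139, 88.3 and 121 CPM in kidney, against 1.02, 6.7, 0 and 0 CPM in heart. Its partner Kcnj10 stood at 14.2, 25.9, 24.5 and 20.4 CPM in kidney, against 0.102, 1.27, 0 and 0.0494 CPM in heart. In both genes the heart reads came mainly from the same library. Kcnt1, a Na-activated channel best known from neurons, stood at 32.4, 48.3, 64.3 and 57.0 CPM in kidney, against 0.407, 5.82, 0.0458 and 0 CPM in heart. Within the kidney table, 4 thick ascending limb markers summed to 1283 to 2260 CPM in the high-salt libraries. The part of thick ascending limb content in the kidney levels of Kcnj1, Kcnj16, Kcnj10 and Kcnt1 was not tested. Kcnj10 reached the threshold in kidney tables alone, so no difference is given for it. For the others the log2 difference, kidney over heart, was 6.35 ± 1.31 for Kcnj1, 6.07 ± 0.89 for Kcnj16 and 5.13 ± 0.95 for Kcnt1 (SE of the fit). Without heart high-salt replicate 2 the same values were 10.84, 8.31 and 8.44. That library alone brought Kcnj1 and Kcnt1 over the rule's threshold in heart, so without it they too reached the threshold in kidney tables alone. Without it their mean over the heart table was 0.186 and 0.108 CPM, against 2.02 and 0.641 CPM with it, and 44 members, against 46, reached 0.5 CPM in heart.

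**Figure D2:**
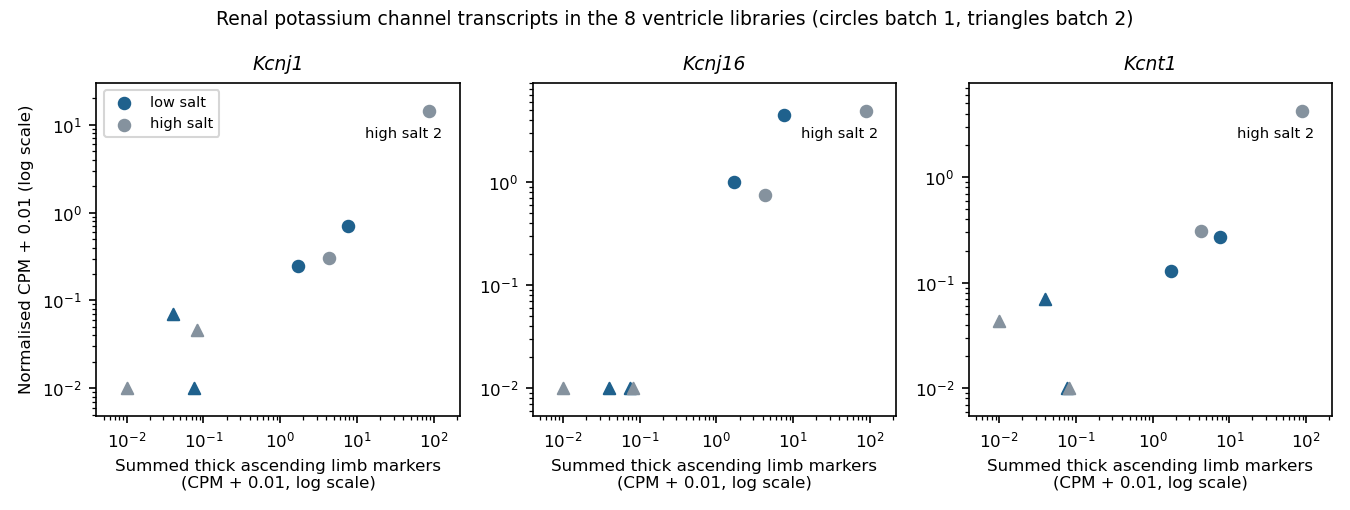
Level of Kcnj1, Kcnj16 and Kcnt1 in the 8 heart libraries (y axis, normalised CPM plus 0.01, log scale) against the summed level of 4 thick ascending limb markers in the same library (x axis, same scale). High-salt replicate 2 has the highest value on both axes for each gene, and the batch 2 libraries lie at the low end.

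The levels of these channels within the heart table followed the same libraries as kidney markers. The 4 thick ascending limb markers Umod, Slc12a1, Cldn16 and Cldn10 summed to 0.030 to 7.60 CPM in heart low-salt libraries and to 0 to 87.7 CPM in heart high-salt libraries. Kcnj16 stood at 0.994, 4.47, 0 and 0 CPM in heart low salt and 0.741, 4.89, 0 and 0 CPM in heart high salt, on levels normalised within the heart table. It was thus at 0 in all 4 libraries of batch 2. Whether kidney RNA in the heart samples of batch 1 gave these reads was not tested.

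Leak channels and epithelial subunits were the next group on the kidney side. Kcnk1, a leak channel subunit found along the nephron, stood at 181, 183, 166 and 192 CPM in kidney, against 0.612, 2.36, 0.183 and 0.0987 CPM in heart. Heart replicate 2 held most of that heart signal, and Kcnk1 reached the threshold in kidney tables alone, so no difference is given. Kcnk5, a leak channel opened by alkaline pH and known from bicarbonate transport, reached 136 ± 55.3 CPM in kidney, against 1.32 ± 0.355 CPM in heart (SD, n = 4 each). Kcnk5 met the rule in both tissues, and its log2 difference was 6.61 ± 0.32 (adjusted p = 1.75e-07). Kcne3, the partner of Kcnq1 in secretory epithelia, stood at 11.0 ± 1.49 CPM in kidney, against 0.652 ± 0.172 CPM in heart. Kcnj13, an inward rectifier of transporting epithelia, had 5.48 ± 2.01 CPM in kidney, against 0.127 ± 0.127 CPM in heart. Kcnip4, a Ca-binding subunit of transient outward channels, had 7.05 ± 0.851 CPM in kidney, against 0.721 ± 0.131 CPM in heart. Kcnma1, the pore of the Ca- and voltage-activated BK channel that secretes K at high flow, stood at 1.45 ± 0.333 CPM in kidney, against 0.321 ± 0.227 CPM in heart. Its accessory subunit Kcnmb4 had 1.07 ± 0.255 CPM in kidney, against 1.29 ± 0.331 CPM in heart. Kcnmb4 did not pass the test, with a log2 difference of -0.27 ± 0.24 (adjusted p = 0.319) that changed sign to 0.63 with library totals.

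Pores and subunits of the cardiac currents were among the members on the heart side. The transient outward current, which starts repolarisation, is carried by Kcnd2 and Kcnd3 with the subunit Kcnip2. Kcnip2 stood at 1.7, 0.864, 0.92 and 0.792 CPM in kidney high-salt libraries, against 1281, 1079, 1149 and 1615 CPM in heart high-salt libraries. The ranges lay far apart, and the log2 difference was -10.22 ± 0.32 (adjusted p = 1.28e-08). Kcnd2 stood at 1.18 ± 0.0858 CPM in kidney, against 19.0 ± 1.83 CPM in heart, a log2 difference of -4.01 ± 0.13. Kcnd3 had 0.323 ± 0.172 CPM in kidney, against 19.4 ± 2.17 CPM in heart. Kcna4, the pore of the slow transient outward current, had 0.0293 ± 0.0456 CPM in kidney, against 13.2 ± 3.84 CPM in heart. Kcnd3 and Kcna4 reached the threshold in the heart table alone.

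Delayed rectifiers complete repolarisation. Kcnh2, the pore of the rapid delayed rectifier, stood at 0.0774 ± 0.0138 CPM in kidney, against 85.9 ± 10.004 CPM in heart. Kcna5, the pore of the ultrarapid delayed rectifier, had no count in any of the 4 kidney libraries, against 5.41 ± 2.62 CPM in heart. Kcna5 reached the threshold in the heart table alone, so no fold is given. Kcng2, a silent subunit that modifies delayed rectifier channels, was lower in kidney. It stood at 0.572 ± 0.271 CPM in kidney, against 317 ± 15.6 CPM in heart, a log2 difference of -9.11 ± 0.25 (adjusted p = 6.62e-09). Kcne1, the partner of Kcnq1 in the slow delayed rectifier, was too low to be tested. It had 1 count over the 4 kidney libraries, against 0.713, 0.263, 0.229 and 6.81 CPM in heart, where replicate 4 stood apart. The same heart held 2513 CPM of the atrial marker Nppa, against 102 to 300 CPM in the other high-salt hearts, and the part of atrial tissue in the Kcne1 value was not tested.

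Inward rectifiers and leak channels of the heart set its resting potential. Kcnj2 and Kcnj12 carry the classical inward rectifier current. Kcnj2 stood at 14.05, 17.0, 18.4 and 15.2 CPM in kidney, against 83.4, 66.1, 119 and 98.6 CPM in heart, a log2 difference of -2.48 ± 0.14 (adjusted p = 4.95e-07). Kcnj12 differed by -6.51 ± 0.49, at 0.73 ± 0.617 CPM in kidney, against 65.4 ± 13.1 CPM in heart. The pores of ATP-sensitive channels, which link K current to metabolism, were also lower in kidney. Kcnj11 stood at 1.8, 1.23, 1.2 and 1.41 CPM in kidney, against 218, 208, 192 and 218 CPM in heart, a log2 difference of -7.21 ± 0.14 (adjusted p = 2.04e-09), and Kcnj8 differed by -4.38 ± 0.14. The acetylcholine-gated pair, known for slowing the heart, was lower in kidney too. Kcnj3 stood at 0.823 ± 0.124 CPM in kidney, against 98.3 ± 12.8 CPM in heart, and differed by -6.89 ± 0.16. Kcnj5 stood at 3.79 ± 1.02 CPM in kidney, against 76.6 ± 30.8 CPM in heart, and differed by -4.26 ± 0.23. In heart high-salt libraries the atrial markers Nppa, Myl7, Sln and Myl4 summed to 110 to 2533 CPM, and their part in the level of this pair was not tested. Among the leak channels, acid-sensitive Kcnk3 stood at 0.0866 ± 0.0426 CPM in kidney, against 124 ± 1.16 CPM in heart. Stretch-activated Kcnk2 differed by -3.90 ± 0.16, at 3.82 ± 1.18 CPM in kidney, against 55.8 ± 10.8 CPM in heart.

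Of the 35 members that met the rule in both tissues, 8 were higher in kidney, 19 were lower, and the median log2 difference was -1.33. Together 77.1% were called, near the 79.9% of all genes (42.4% higher, 37.6% lower). The 35 include Kcnj1 and Kcnt1, which reached the threshold in heart through high-salt replicate 2 alone. Kcnq1, a voltage-gated pore used by the heart and by epithelia, stood at 40.1, 50.6, 46.7 and 41.8 CPM in kidney, against 117, 115, 123 and 114 CPM in heart. Every kidney value lay below every heart value, with a log2 difference of -1.39 ± 0.09 (adjusted p = 9.71e-07), but of -0.49 with library totals and -0.93 in the low-salt libraries. Its adjusted p over all alternatives ran from 1.36e-41 to 0.00186. Kcna2, a delayed rectifier best known from axons, stood at 44.7, 44.5, 79.1 and 80.6 CPM in kidney, against 29.0, 26.2, 23.6 and 24.6 CPM in heart, and was higher in kidney by 1.21 ± 0.19 (adjusted p = 0.000380). Kcnj15, an inward rectifier known from the proximal tubule, was higher by 1.48 ± 0.26, and Kcnc4, a fast voltage-gated pore, by 1.91 ± 0.36. Kcnk6, a leak channel of endolysosomes and vessels, was higher by 0.50 ± 0.15 (adjusted p = 0.0114). Kcnn4, the Ca-activated channel of intermediate conductance, was lower in kidney, at 0.75 ± 0.171 CPM, against 4.7 ± 1.58 CPM in heart.

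Counts by family include the members that reached the threshold in 1 tissue alone, which favours a difference, and stand beside 79.9% of all genes called. They were 6 higher and 7 lower of 13 inward rectifiers, 4 higher and 2 lower of 7 two-pore-domain channels, 7 higher and 13 lower of 26 voltage-gated pores, 2 higher and 3 lower of 7 Ca- or Na-activated channels, and 3 higher and 4 lower of 12 auxiliary subunits. Among 6 tested partners of these channels outside the Kcn series, 2 were higher and 3 lower. The sulfonylurea receptor subunits Abcc8 (-5.57 ± 0.14) and Abcc9 (-5.70 ± 0.16) were lower in kidney like the ATP-sensitive pores Kcnj11 and Kcnj8 that they regulate. The transient outward partner Dpp6 (3.87 ± 0.48) was higher in kidney, unlike Kcnd2. Its difference rests on few heart reads, at 1.68 ± 0.131 CPM in kidney high salt, against 0 to 0.127 CPM in heart high salt, normalised within each table. The related Dpp10 stood at 5.39 ± 1.85 CPM in kidney, on levels normalised within each table, while the highest heart high-salt library held 0.0656 CPM and the other 3 none, so no fold is given.

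Within the kidney-high and heart-high inward rectifiers are 2 pairs of chromosomal neighbours with opposite tissue differences. In the RefSeq annotation of GRCr8 no protein-coding gene lies between Kcnj5 and Kcnj1 on chromosome 8, nor between Kcnj16 and Kcnj2 on chromosome 10. Kcnj1 and Kcnj16 lay on the kidney side by 6.35 ± 1.31 and 6.07 ± 0.89, and their neighbours Kcnj5 and Kcnj2 on the heart side by -4.26 ± 0.23 and -2.48 ± 0.14. Without heart high-salt replicate 2 the differences of Kcnj1 and Kcnj16 were larger, as given above, and Kcnj1 did not reach the rule's threshold in heart. The promoters of these 4 genes are shown because adjacent genes with opposite tissue levels can be read side by side, 5′ to 3′ from 250 bases before to 50 bases after each annotated start, as RefSeq sequence of GRCr8. They lie at chr8:39037742-39038041 (plus strand, Kcnj1 promoter 1), chr8:39061391-39061690 (plus strand, Kcnj1 promoter 2), chr8:39011047-39011346 (minus strand, Kcnj5), chr10:96517074-96517373 (plus strand, Kcnj16) and chr10:96559975-96560274 (plus strand, Kcnj2). Capitals mark the motifs searched on both strands: the TATA box TATAAA, the GC box GGGCGG, the steroid receptor half-site TGTTCT and the HNF1 half-site GTTAAT, or their reverse complements.
Kcnj1 promoter 1: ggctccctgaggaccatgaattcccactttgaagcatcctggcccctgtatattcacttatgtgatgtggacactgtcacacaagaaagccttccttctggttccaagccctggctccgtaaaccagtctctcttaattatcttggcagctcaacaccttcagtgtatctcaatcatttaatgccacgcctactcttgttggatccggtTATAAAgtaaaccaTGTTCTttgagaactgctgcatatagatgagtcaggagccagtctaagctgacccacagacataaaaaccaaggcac
Kcnj1 promoter 2: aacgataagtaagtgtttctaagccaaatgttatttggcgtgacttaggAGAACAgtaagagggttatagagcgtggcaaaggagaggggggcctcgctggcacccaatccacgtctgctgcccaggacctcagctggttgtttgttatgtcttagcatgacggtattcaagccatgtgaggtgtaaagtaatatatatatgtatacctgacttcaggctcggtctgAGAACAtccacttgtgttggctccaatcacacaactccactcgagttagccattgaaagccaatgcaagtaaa
Kcnj5 promoter: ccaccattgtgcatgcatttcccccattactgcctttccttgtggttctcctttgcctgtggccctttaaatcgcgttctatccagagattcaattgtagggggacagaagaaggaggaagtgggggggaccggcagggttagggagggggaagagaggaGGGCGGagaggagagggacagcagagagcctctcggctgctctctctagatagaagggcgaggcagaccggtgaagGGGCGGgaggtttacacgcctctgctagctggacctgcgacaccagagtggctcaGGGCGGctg
Kcnj16 promoter: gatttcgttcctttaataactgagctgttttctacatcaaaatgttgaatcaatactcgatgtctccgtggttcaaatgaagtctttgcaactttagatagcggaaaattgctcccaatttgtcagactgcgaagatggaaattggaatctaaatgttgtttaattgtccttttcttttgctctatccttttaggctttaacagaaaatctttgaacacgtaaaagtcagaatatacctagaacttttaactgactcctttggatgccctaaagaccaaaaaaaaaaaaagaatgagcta
Kcnj2 promoter: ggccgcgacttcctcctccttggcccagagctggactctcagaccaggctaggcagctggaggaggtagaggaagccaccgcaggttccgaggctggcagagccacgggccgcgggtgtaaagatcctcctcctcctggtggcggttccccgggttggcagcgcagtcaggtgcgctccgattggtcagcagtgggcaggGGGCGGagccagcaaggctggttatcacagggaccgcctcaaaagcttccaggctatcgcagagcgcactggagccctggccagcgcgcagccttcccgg

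No 2 motifs overlapped in these 5 windows. Counting the first base of a motif from the start site, Kcnj1 promoter 1 held a TATA box at -41 and a half-site TGTTCT at -27. Kcnj1 promoter 2 held that half-site on the minus strand, printed as AGAACA, at -201 and -23. Kcnj5 held GC boxes at -90, -14 and 41, Kcnj2 held a GC box at -50, and the Kcnj16 window held none of the 4 motifs. GC content was 46.0% in both Kcnj1 windows and 34.0% in that of Kcnj16, against 59.0% in Kcnj5 and 67.0% in Kcnj2, while the median over 33469 rat promoters of the same length was 51.7%. Promoters were matched for 46 of the 66 members, 50 windows with a median GC content of 61.2%. Of all promoters 14.2% held a TATA box, 33.1% a GC box, 20.7% a steroid receptor half-site and 7.5% an HNF1 half-site, and of the 50 member windows 4.0%, 54.0%, 16% and 6.0%. A match is a run of letters and not evidence of binding.

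Aldosterone infusion was compared with control in the inner medulla. No member passed an adjusted p of 0.05 by edgeR's quasi-likelihood test among 55 tested, and none of all 17671 genes did (0%). With p under 0.05 before adjustment there were 6 members higher and 2 lower, 14.5% of those tested, against 9.9% of all genes (6.2% higher, 3.7% lower). DESeq2 called 3 members higher, Kcnc4, Kcnq1 and Kcnt1, and 1.69% of all genes higher. The log2 difference was positive for 38 of 55 members, 69.1%, against 50.9% of all genes, with a median of 0.21, against 0.0041 over all genes. The groups did not overlap for 5 members, 4 higher and 1 lower, 9.09%, against 5.12% of all genes (3.14% higher, 1.98% lower).

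**Figure D3:**
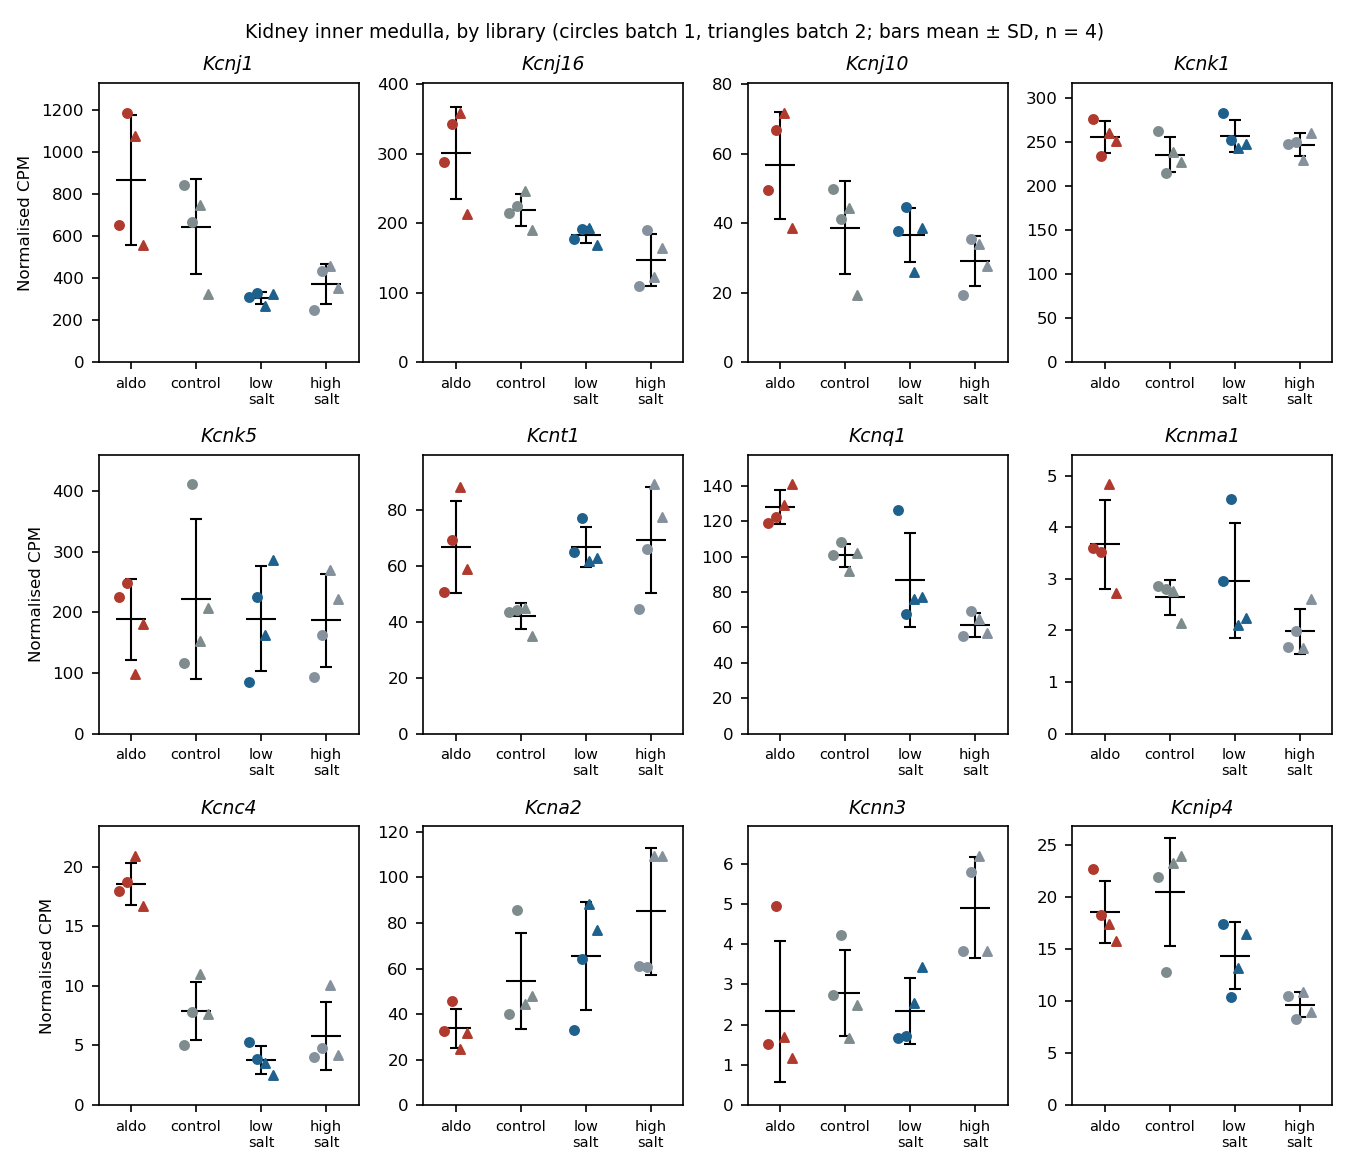
Normalised CPM of 12 members in the 16 kidney libraries, 1 panel per gene, with points for single rats and bars for group means and SD. The 4 aldosterone values of Kcnc4 and Kcnt1 lie above all control values, and the 4 low-salt values of Kcnn3 lie below all high-salt values.

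Kcnc4 had the smallest p of any member. It stood at 17.9, 18.8, 20.9 and 16.7 CPM in aldosterone rats, against 5.03, 7.81, 11.0 and 7.64 CPM in control rats. Every aldosterone value lay above every control value, by a log2 difference of 1.26 ± 0.20 (2.4-fold; adjusted p = 0.182), with 1.501 in batch 1 and 1.01 in batch 2. Its adjusted p was 3.78e-06 by DESeq2 and ran from 3.78e-06 to 0.89 over the alternatives. Kcnq1 stood at 119, 122, 129 and 141 CPM in aldosterone rats, against 101, 108, 92.1 and 102 CPM in control rats. The groups did not overlap here either, and the log2 difference of 0.34 ± 0.08 was 0.21 in batch 1 and 0.48 in batch 2 (adjusted p = 0.24 by edgeR; 0.0226 by DESeq2; 0.0226 to 0.89 over the alternatives). Kcnt1 stood at 50.4, 69.3, 88.3 and 58.9 CPM in aldosterone rats, against 43.3, 44.2, 45.1 and 35.0 CPM in control rats. Again all aldosterone values were the higher ones, with a log2 difference of 0.67 ± 0.17, 0.45 in batch 1 and 0.88 in batch 2 (adjusted p = 0.267 by edgeR; 0.0231 by DESeq2; 0.0231 to 0.89 over the alternatives).

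The renal inward rectifiers had positive but overlapping values. Kcnj1 stood at 653, 1187, 1078 and 557 CPM in aldosterone rats, against 843, 665, 750.4 and 323 CPM in control rats. The ranges overlapped, with control replicate 4 the lowest of the 8, and the log2 difference was 0.45 ± 0.32 (adjusted p = 0.689). Kcnj16 stood at 288, 343, 359 and 213 CPM in aldosterone rats, against 215, 225, 246 and 189.7 CPM in control rats, a log2 difference of 0.46 ± 0.16 (adjusted p = 0.412). Kcnj10 stood at 49.6, 66.8, 71.8 and 38.6 CPM in aldosterone rats, against 49.8, 41.2, 44.5 and 19.3 CPM in control rats, a log2 difference of 0.57 ± 0.29 (adjusted p = 0.57). All 3 genes were lowest in control replicate 4. The summed thick ascending limb markers moved with them, at 1833, 3569.8, 3510.3 and 1753 CPM in aldosterone rats, against 1679.5, 2037, 1838 and 762 CPM in control rats. All 4 of these markers had positive log2 differences, with a median of 0.67 and none past the adjusted threshold by edgeR (2 at an unadjusted p under 0.05, 0 by DESeq2). The part of thick ascending limb content in the Kcnj1, Kcnj16, Kcnj10 and Kcnt1 values was not tested. Intercalated cell markers summed to 1497 to 2606 CPM in aldosterone rats, against 1173 to 2007 CPM in control rats, and fibroblast markers to 111.5 to 353 CPM, against 85.4 to 271 CPM. DESeq2 called the fibroblast markers Col1a1 and Col3a1 higher. Erythroid genes summed to 2966 to 4160 CPM in aldosterone rats, against 1861 to 2443 CPM in control rats, without overlap. All 4 had positive log2 differences, 3 at an unadjusted p under 0.05 by edgeR, and DESeq2 called Hba-a1 higher. Slc4a1 is in both the intercalated and the erythroid list. Their part in the channel values was not tested.

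Among the other renal members, Kcnma1 stood at 3.6, 3.52, 4.83 and 2.73 CPM in aldosterone rats, against 2.87, 2.8, 2.77 and 2.14 CPM in control rats. The ranges overlap at a single aldosterone value, and the log2 difference was 0.47 ± 0.23 (adjusted p = 0.552). Its subunit Kcnmb4 had 0.49 ± 0.30, the Ca-activated Kcnn4 0.34 ± 0.36, and the epithelial subunit Kcne3 -0.32 ± 0.22. Kcnk1 stood at 277, 233.8, 261 and 251 CPM in aldosterone rats, against 262, 215, 238 and 227 CPM in control rats, a log2 difference of 0.12 ± 0.09. Kcnk5 varied widely within each group, with 225, 249, 98.6 and 180.3 CPM in aldosterone rats, against 117, 411, 153 and 207 CPM in control rats. Its log2 difference of -0.26 ± 0.36 and that of Kcnj15, 0.04 ± 0.35, lay within that spread.

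Kcna2 was lower in aldosterone rats, with 32.5, 45.6, 24.8 and 31.8 CPM, against 40.0, 85.7, 44.6 and 47.8 CPM in control rats. Control replicate 2 stood above the rest there, the log2 difference being -0.70 ± 0.23 (adjusted p = 0.373) and -0.45 without it. Kcnj2 had -0.31 ± 0.12 (adjusted p = 0.463), Kcnj13 -0.46 ± 0.23 and the leak channel Kcnk13 -0.81 ± 0.41. By family, 15 of 19 voltage-gated pores, 8 of 11 auxiliary subunits, 5 of 6 Ca- or Na-activated channels, 7 of 13 inward rectifiers and 3 of 6 two-pore-domain channels had positive values.

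Of the regulators of renal K channels, the kinases and ligase genes Sgk1, Wnk1, Wnk4, Oxsr1, Stk39, Nedd4l, Klhl3 and Cul3, none of 8 tested passed with aldosterone by edgeR (2 at an unadjusted p under 0.05, 0 by DESeq2). The median was -0.10 and 3 were positive. None of 7 genes of cell K entry and its Na partner, among them the Na pump subunit Atp1b1, the epithelial Na channel genes Scnn1a, Scnn1b and Scnn1g, and the cotransporter Slc12a7, passed either (3 at an unadjusted p under 0.05; 3 called higher by DESeq2, among them Atp1b1 and Scnn1a), with a median of 0.04. Of 6 channel partners tested, the count was 0 too (1 at an unadjusted p under 0.05, 0 by DESeq2).

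**Figure D4:**
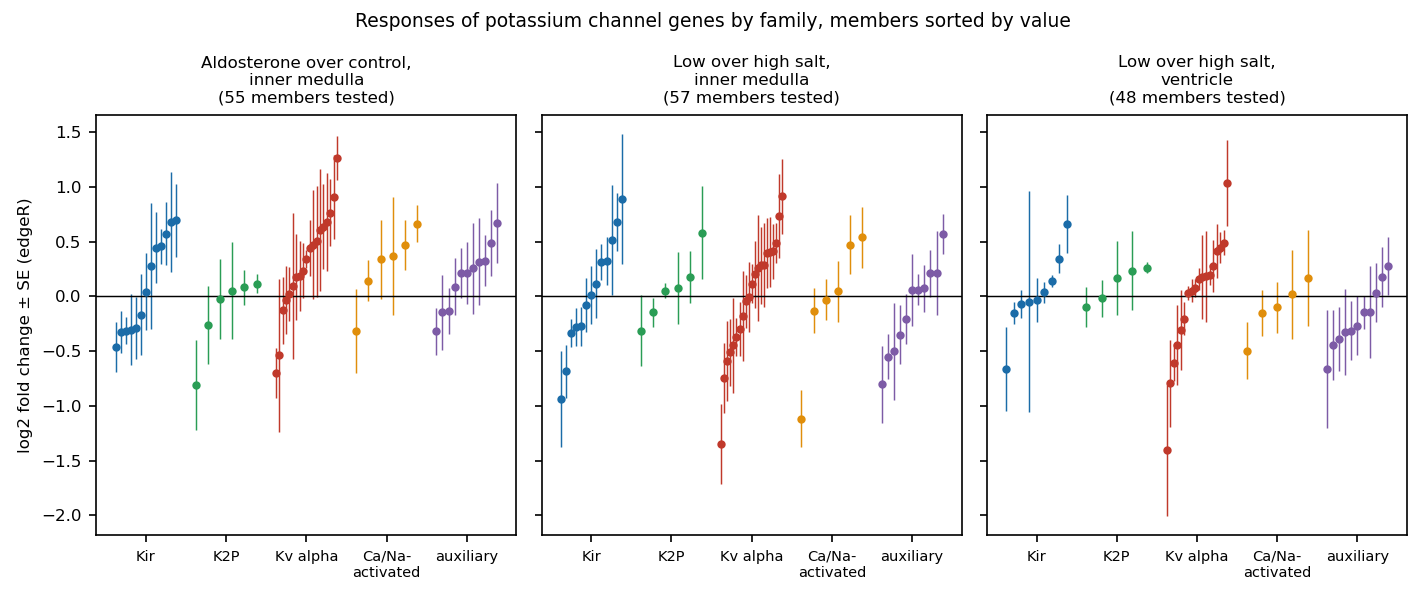
Log2 difference with its standard error for every tested member in the aldosterone comparison, the kidney low-salt comparison and the heart low-salt comparison (1 panel each), grouped by channel family. No point passes the adjusted threshold of 0.05, and most aldosterone values lie above 0, 38 of 55.

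The kidney low-salt comparison asked how the same tissue differs when Na intake is low. No member of 57 tested passed by edgeR's quasi-likelihood test, against 454 of 18449 genes (2.46%). With p under 0.05 before adjustment, 4 members were higher and 6 lower, 17.5%, against 19.6% of all genes (8.98% higher, 10.6% lower). DESeq2 called Kcnip4 higher and Kcnn3 and Kcnh7 lower, against 4.46% of all genes higher and 4.73% lower. The log2 difference was positive for 31 of 57 members, 54.4%, against 49.3% of all genes, with a median of 0.054. The groups did not overlap for 2 members, both lower on low salt, 3.51%, against 11.4% of all genes (6.6% lower).

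Kcnn3, a Ca-activated channel of small conductance known from endothelium and neurons, was nearest to the threshold. It stood at 1.68, 1.72, 2.53 and 3.43 CPM on low salt, against 3.84, 5.8, 6.2 and 3.82 CPM on high salt. All low-salt values lay below all high-salt values, and the log2 difference was -1.12 ± 0.26 (2.17-fold lower; adjusted p = 0.0663), with -1.45 in batch 1 and -0.73 in batch 2. It passed by DESeq2 (adjusted p = 0.00219) and without kidney high-salt replicate 4 (-1.32, adjusted p = 0.0476), within 0.00219 to 0.393 over the alternatives. Endothelial markers summed to 178 to 298 CPM on low salt, against 264 to 353 CPM on high salt, and 1 of 4, Emcn, fell by 0.75 ± 0.12 on the log2 scale (adjusted p = 0.0319). Smooth muscle markers summed to 24.2 to 37.8 CPM on low salt, against 36.8 to 43.7 CPM on high salt. Of 3 of these tested 0 passed by edgeR (2 at an unadjusted p under 0.05), and DESeq2 called Myh11 lower, at 5.22, 8.06, 11.4 and 7.95 CPM on low salt, against 12.7, 18.8, 18.8 and 11.7 CPM on high salt. The part of either cell type in the Kcnn3 value was not tested. Kcnip2 also did not overlap, at 0.457, 1.05, 0.948 and 0.852 CPM on low salt, against 2.33, 1.18, 1.27 and 1.07 CPM on high salt (log2 difference -0.80 ± 0.35, adjusted p = 0.258).

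Kcnh7, a voltage-gated pore related to Kcnh2, stood at 0.396, 0.446, 0.884 and 0.243 CPM on low salt, against 0.831, 1.21, 1.51 and 1.52 CPM on high salt. Within each batch the low-salt values were the lower ones, and the log2 difference was -1.35 ± 0.36 (adjusted p = 0.0928 by edgeR; 0.0303 by DESeq2; 0.0303 to 0.354 over the alternatives). Kcnip4 stood at 17.4, 10.4, 13.1 and 16.4 CPM on low salt, against 10.5, 8.32, 10.9 and 8.92 CPM on high salt. Its log2 difference was 0.57 ± 0.18 (adjusted p = 0.137 by edgeR; 0.028 by DESeq2; 0.028 to 0.474 over the alternatives). Kcnq1 stood at 126, 67.4, 76.3 and 77.2 CPM on low salt, against 54.99, 69.1, 64.6 and 56.7 CPM on high salt. Low-salt replicate 1 stood far above the other 7 libraries, and the log2 difference was 0.49 ± 0.18 (adjusted p = 0.189) with it and 0.25 without it. Intercalated cell markers summed to 2076 CPM in that library, to 1038 to 1306 CPM in the other low-salt libraries and to 913 to 1491 CPM on high salt, and their part in the Kcnq1 value was not tested. Kcnj5 had -0.68 ± 0.24, Kcnj3 0.68 ± 0.26, Kcnj2 -0.33 ± 0.13, and the cytoplasmic subunit Kcnab2 -0.55 ± 0.21, none past the adjusted threshold.

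The renal channels kept overlapping ranges on both diets. Kcnj1 stood at 307, 329, 266 and 325 CPM on low salt, against 248, 432, 458 and 351 CPM on high salt, a log2 difference of -0.27 ± 0.18 (adjusted p = 0.444). Kcnj16 stood at 178, 191, 192 and 168 CPM on low salt, against 109.6, 190.4, 122 and 163 CPM on high salt, a log2 difference of 0.32 ± 0.17 (adjusted p = 0.337). In both genes the low-salt values lay inside or close to the high-salt range. Thick ascending limb markers summed to 1405 to 2679 CPM on low salt, against 1283 to 2260 CPM on high salt. Their part in the renal channel values was not tested. Kcnma1 stood at 2.95, 4.55, 2.11 and 2.25 CPM on low salt, against 1.68, 1.99, 1.66 and 2.6 CPM on high salt, with low-salt replicate 2 the highest and a log2 difference of 0.54 ± 0.28. Kcnj10 had 0.33 ± 0.22, Kcnk1 0.05 ± 0.07, Kcnk5 0.07 ± 0.33, Kcnt1 -0.03 ± 0.18, Kcne3 0.06 ± 0.14, Kcnj15 0.51 ± 0.50, Kcnn4 0.47 ± 0.27 and Kcnmb4 -0.35 ± 0.27. Positive values came from 11 of 21 voltage-gated pores, 7 of 13 inward rectifiers, 6 of 11 auxiliary subunits, 4 of 6 two-pore-domain channels and 3 of 6 Ca- or Na-activated channels.

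Around the channels, Klhl3 was the regulator that passed, 1 of 8. Klhl3, an adaptor that marks WNK kinases for degradation, averaged 44.0 ± 7.45 CPM on low salt, against 24.9 ± 4.12 CPM on high salt, and rose by 0.82 ± 0.15 on the log2 scale (adjusted p = 0.0402). That call held without low-salt replicate 1 or high-salt replicate 4, was lost without any other single library (over the 8 libraries left out in turn, 0.71 to 0.97 with adjusted p = 0.0259 to 0.119) and with the replicate block (0.82, adjusted p = 0.0785), and its adjusted p was 2.86e-05 by DESeq2 and up to 0.244 over the alternatives. In the list of cell K entry, 1 of 7 rose: Scnn1a, a pore subunit of the amiloride-sensitive Na channel that aldosterone is known to induce, at 164 ± 59.5 CPM on low salt, against 25.4 ± 6.25 CPM on high salt (2.66 ± 0.25, adjusted p = 0.0103). All 7 genes of that list had positive values, with a median of 0.42, and 6 of the 8 regulators did, with a median of 0.14. DESeq2 called 5 of the 7 higher, among them Scnn1b, Scnn1g and Atp1b1, and 2 of the 8 regulators, adding Nedd4l, the ligase that removes the Na channel from the membrane. Of 7 channel partners tested none passed by edgeR (0 at an unadjusted p under 0.05, 0 by DESeq2).

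In the heart ventricle, low salt was set against high salt. Among 48 members tested none passed by edgeR's quasi-likelihood test, against 8 of 15473 genes (0.0517%; 0 genes with the replicate number as a block). With p under 0.05 before adjustment, 7 members were higher and 2 lower, 18.8%, against 10.6% of all genes (5.68% higher, 4.92% lower). DESeq2 called Kcnd2 and Kcnk3 higher, and 1.22% of all genes higher. The log2 difference was positive for 24 of 48 members, 50%, against 48.2% of all genes, with a median of 0.0012. The groups did not overlap for 2 members, both higher on low salt, 4.17%, against 4.7% of all genes (2.69% higher).

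**Figure D5:**
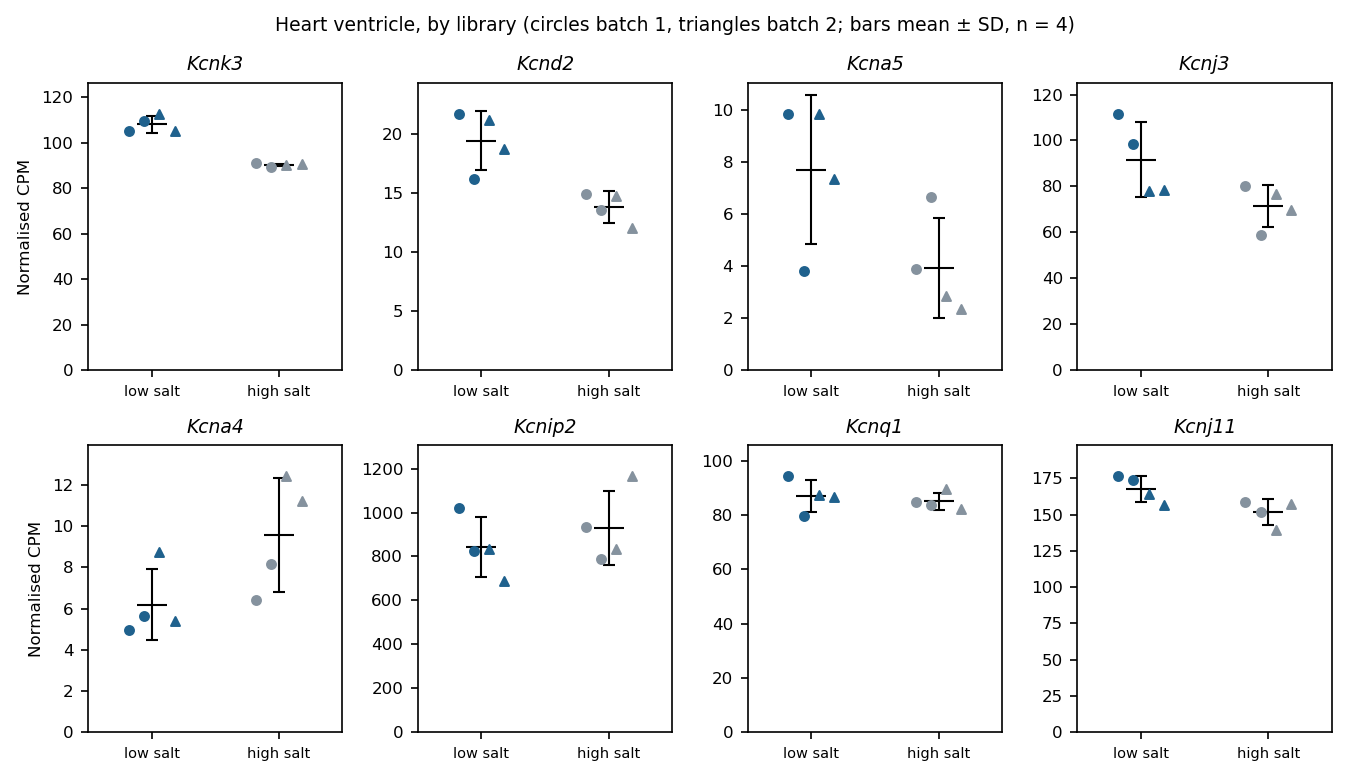
Normalised CPM of 8 cardiac members in the 8 heart libraries, 1 panel per gene, with points for single rats and bars for group means and SD. The 4 low-salt values of Kcnk3 and Kcnd2 lie above all high-salt values, and those of Kcnq1 overlap.

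Kcnk3, the acid-sensitive leak channel, stood at 105, 109.6, 113 and 105 CPM on low salt, against 90.9, 89.5, 90.1 and 90.5 CPM on high salt. Every low-salt rat was above every high-salt rat. The high-salt values had a coefficient of variation of 0.674% on 2453 to 2801 expected counts. That is less than counting error alone would usually give, so it does not measure the spread between rats. The log2 difference was 0.26 ± 0.05 (1.2-fold; adjusted p = 0.157 by edgeR; 0.000363 by DESeq2; 0.000363 to 0.467 over the alternatives), with 0.25 in batch 1 and 0.27 in batch 2. Kcnd2, the transient outward pore, stood at 21.7, 16.2, 21.1 and 18.7 CPM on low salt, against 14.9, 13.6, 14.7 and 12.0 CPM on high salt. Its ranges did not overlap either, with a log2 difference of 0.49 ± 0.12, 0.41 in batch 1 and 0.57 in batch 2 (adjusted p = 0.239 by edgeR; 0.0217 by DESeq2; 0.0217 to 0.504 over the alternatives). The other genes of that current had values close to 0: Kcnd3 0.05 ± 0.10 and Kcnip2 -0.15 ± 0.15.

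Kcna4, the slow transient outward pore, stood at 4.97, 5.65, 8.74 and 5.38 CPM on low salt, against 6.41, 8.18, 12.4 and 11.2 CPM on high salt. The low-salt values were the lower ones in each batch, by a log2 difference of -0.60 ± 0.17 (adjusted p = 0.274). Kcna5 stood at 9.86, 3.8, 9.85 and 7.35 CPM on low salt, against 3.89, 6.64, 2.84 and 2.35 CPM on high salt, a log2 difference of 1.04 ± 0.39 (adjusted p = 0.403). Kcna2 had 0.45 ± 0.14, Kcnj3 0.35 ± 0.13, Kcnj15 0.67 ± 0.26 and Kcnj11 0.14 ± 0.06. None of these passed. Kcna5 and Kcnj3 are known mainly from atrium, where Nppa and Sln mark the cells, and the 4 atrial markers summed to 33.6 to 209 CPM on low salt, against 110 to 2533 CPM on high salt. Their part in these values was not tested.

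The remaining cardiac channel genes did not pass either. Kcnq1 stood at 94.4, 79.6, 87.5 and 86.7 CPM on low salt, against 84.8, 83.7, 89.4 and 82.4 CPM on high salt, a log2 difference of 0.03 ± 0.07 (adjusted p = 0.884). Kcnh2 had 0.19 ± 0.09, Kcnj2 -0.15 ± 0.10, Kcnj12 0.04 ± 0.10, Kcnj8 -0.07 ± 0.13, Kcnj5 -0.03 ± 0.20 and Kcnk2 -0.02 ± 0.17. Kcnj16 was tested on few reads, -0.05 ± 1.01, while Kcnj1, Kcnma1 and Kcne1 did not pass the filter on low counts. Fibroblast markers summed to 1030 to 2159 CPM on low salt, against 1707 to 2319 CPM on high salt, and erythroid genes to 13941 to 44349 CPM, against 1798 to 26437 CPM. Of the 8 regulators, 5 genes of cell K entry and 5 partners tested in heart, 0 passed by edgeR, 0 had an unadjusted p under 0.05 and 0 passed by DESeq2.

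The difference between the low-salt responses of kidney and heart was tested as an interaction over 16 libraries. No member of 65 passed by edgeR, against 161 of 19408 genes (0.83%). Before adjustment, 8 members had a positive and 2 a negative difference with p under 0.05, against 7.1% and 7.33% of all genes. DESeq2 called Kcnj13 higher and Kcna2 lower, against 1.74% and 2.49% of all genes. Kcnj13 had 0 counts in all 4 heart low-salt libraries and 0, 4.03, 6.13 and 0.999 expected counts in the heart high-salt libraries, so its call rests on a group at 0 and no difference is given. Kcna2 had -0.37 ± 0.17 in kidney and 0.45 ± 0.14 in heart, a difference of -0.81 ± 0.24 (adjusted p = 0.142 by edgeR). The differences of Kcnj1, 3.54 ± 1.23 (adjusted p = 0.202), and Kcnt1, 3.26 ± 1.06 (adjusted p = 0.174), rest on heart high-salt replicate 2 and were -0.95 and 0.37 without it. Kcnj16 had 0.39 ± 0.82, Kcnq1 0.46 ± 0.21 and Kcnma1 -0.10 ± 0.49.

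The aldosterone and low-salt responses of the inner medulla were compared in the same way over 16 kidney libraries that share no rat group. No member of 57 passed by edgeR, against 10 of 18938 genes (0.0528%). Before adjustment, 4 members had a positive and 1 a negative difference with p under 0.05, against 6.75% and 6.37% of all genes. DESeq2 called Kcnc4 higher, against 1.96% of all genes. Kcnc4 had 1.26 ± 0.20 with aldosterone and -0.59 ± 0.36 on low salt, a difference of 1.84 ± 0.44 (adjusted p = 0.0959 by edgeR; 0.00288 to 0.189 over the alternatives). Kcnj5 differed by 1.36 ± 0.44 (adjusted p = 0.189), Kcnj1 by 0.71 ± 0.41, Kcnj16 by 0.12 ± 0.25, Kcnq1 by -0.17 ± 0.22 and Kcnma1 by -0.09 ± 0.37. The 2 experiments also differ in the Xist and Y-linked pattern given above, which cannot be told apart from the experiment.

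The spread between rats differed from channel to channel. Among members at 5 CPM or more, the coefficient of variation had a median of 23.9% in aldosterone rats and 24.7% in control rats, of 19.1% in kidney low salt and 25.4% in kidney high salt, and of 13.0% in heart low salt and 11.6% in heart high salt. The most variable were Kcne3 in aldosterone rats (40.4%), Kcnk5 in control rats (59.2%), Kcnj15 in kidney low salt (49.6%) and high salt (71.2%), Kcna5 in heart low salt (37.1%) and Kcnj5 in heart high salt (39.9%). The least variable in each group, in the same order, were Kcnk1 (7.00%), Kcnq1 (6.58%), Kcnj16 (6.35%), Kcnk6 (5.07%), Kcnj12 (1.88%) and Kcnk3 (0.674%). The values of Kcnj12, on 1176 to 1632 expected counts, and Kcnk3, on 2453 to 2801, are below usual counting error. They are thus not a trait of these channels. Proximal tubule markers varied with Kcnj15. In kidney they summed to 96.9, 401, 258 and 190.4 CPM on low salt, against 212, 320, 59.8 and 79.2 CPM on high salt, and Kcnj15 stood at 5.63, 22.4, 16.7 and 12.4 CPM on low salt, against 11.2, 23.0, 5.71 and 5.79 CPM on high salt. In heart they summed to 15.5, 63.6, 0.627 and 1.08 CPM on low salt, against 16.9, 35.3, 0.864 and 0.321 CPM on high salt, and Kcnj15 stood at 2.74, 5.99, 1.94 and 2.27 CPM on low salt, against 2.37, 3.26, 1.36 and 1.21 CPM on high salt. Their part in the Kcnj15 values was not tested. Of the 66 members, which include those too low to be tested, 27 had positive differences in both batches with aldosterone and 14 had negative ones in both. The other 25 had opposite signs or a difference of 0 in a batch. The counts were 25, 15 and 26 for kidney low salt, 15, 17 and 34 for heart low salt, and 28, 33 and 5 for kidney over heart.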

How the data were processed

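RNA was measured in 24 libraries, 4 rats in each of 6 groups, with samples placed in groups and batches by their titles and characteristics. Per the labels' protocols, TruSeq stranded mRNA libraries were sequenced single-end with 50 cycles on a NovaSeq X plus. Tools listed in the submitters' processing notes are bcl2fastq 2.19, Trimmomatic, MultiQC and Salmon. Not given in the sources used here are genome build, annotation and strand setting. What the authors deposited were expected counts, estimates that need not be whole, not normalised, for 36856 genes in 3 tables, 1 for the aldosterone experiment, 1 for kidney and 1 for heart of the low-salt experiment. Reads that fit similar or overlapping genes are shared out by estimation.

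The expected counts were rounded. Each comparison was fitted on all genes with edgeR 4.0.16 (R 4.3.3): filterByExpr with a minimum count of 10, TMM scaling, batch as a term, quasi-likelihood F test, Benjamini-Hochberg adjustment over all genes tested, threshold 0.05. Treatment comparisons used 1 table each, and levels are CPM normalised within it. The tissue comparison scaled 8 libraries of 2 separately deposited tables together, so its CPM are on another scale, and rounding, scaling and composition can move such differences. Interactions were fitted over 16 libraries, each table and batch having its own intercept. Within-batch log2 differences compare means of 2 rats per group with 0.1 CPM added. P-values set each difference against the variation between these rats within a batch, as estimated by the fit. Scripts were tested on simulated data.

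The members, gene lists and tests were chosen with earlier results of these data known. The members named are Kcnj1, Kcnj16, Kcnq1 and Kcnma1, any member past the threshold, the 4 smallest p-values per direction in each treatment comparison, the 8 largest folds per direction between tissues at 1 CPM or more, a renal and a cardiac role list, and those beside the rule's threshold; some genes that this rule or the lists name are not reported here. Members that differ most within a group, Kcnk6, Kcnt1 and the pathway and marker genes are outside that rule and were partly chosen after their values were seen. The rule keeps 53 members at 1 CPM in place of 0.5, and 66 when libraries are scaled to their effective size.

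Alternatives were DESeq2 1.42.0 and its size factors, upper quartile scaling, a block of replicate numbers, leaving out the filter or setting it at 1 CPM in 4 libraries, leaving out the batch term, each batch alone and each library left out. Same-numbered samples deviated together from their group means between tissues (correlation 0.227 to 0.313; 0.127 to 0.209 after removing batch means) and between diets in heart (0.161 to 0.231; -0.050 to 0.003), but not in every pair for aldosterone (-0.045 to 0.380) or kidney diet (-0.044 to 0.291), and the labels tie no number to a shared rat or litter. Chi-square values per gene between libraries of 1 group were 20.3 to 104 over 36 pairs, so no library was a copy of another in its group. Pairs across groups were not compared.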

Additional observations from a re-analysis of the deposited data

Results flagged for a closer look

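In each group of 4 rats, the highest or lowest level of a named member was set against the others by Dixon's criterion at 95% confidence, which asks whether the gap to the nearest value takes up most of the range. Of 125 groups, 8 met it, where chance at 5% would give 6.2. The values are linked, as 3 of the 8 came from the same library. Kcne1 in heart, too low to be tested, was added by choice. These counts are thus not a test. Heart high-salt replicate 2 met it for 3 renal channels: Kcnj1 at 14.5 CPM, Kcnj16 at 4.89 CPM and Kcnt1 at 4.25 CPM, with the other 3 rats at 0 to 0.296, 0 to 0.741 and 0 to 0.296 CPM. The same library held 47.8 CPM of Umod, 36.0 CPM of Slc12a1 and 20.95 CPM of Aqp2.

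The other 5 values came from 5 libraries. Kcnq1 was at 126 CPM in kidney low-salt replicate 1, with the other low-salt rats at 67.4 to 77.2 CPM, and intercalated cell markers summed there to 2076 CPM, with the others at 1038 to 1306 CPM. Kcna2 was at 85.7 CPM in control replicate 2, with the others at 40.0 to 47.8 CPM. Kcne1 was at 4.92 CPM in heart high-salt replicate 4, with the others at 0.166 to 0.519 CPM, and Nppa there at 2513 CPM, with the others at 102 to 300 CPM. Kcnip2 was at 2.33 CPM in kidney high-salt replicate 1, with the others at 1.07 to 1.27 CPM, and urothelial markers summed there to 364 CPM, with the others at 50.6 to 111 CPM. Kcnma1 was low in control replicate 4, at 2.14 CPM, with the others at 2.77 to 2.87 CPM, and thick ascending limb markers summed there to 762 CPM, with the others at 1679.5 to 2037 CPM. The part of these cell types in the values was not tested.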

How the results depend on the processing

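In the treatment comparisons and interactions, members lay on the same side of the threshold under every alternative in edgeR without a library left out, while the DESeq2 Wald test called 3 members higher with aldosterone, 1 higher and 2 lower in kidney on low salt, 2 higher in heart, 1 higher and 1 lower for kidney minus heart, and 1 higher for aldosterone minus low salt. The cause was not tested. Leaving out 1 library gave 0 to 1 member lower in kidney on low salt (Kcnn3, without high-salt replicate 4), and for kidney minus heart 0 to 2 higher (Kcnj1 and Kcnt1, without heart high-salt replicate 1) and 0 to 1 lower (Kcna2, without kidney low-salt replicate 2). In the tissue comparison 49 of 51 calls remained with the replicate block (21 higher and 28 lower), and 49 without heart high-salt replicate 2 (21 and 29). The replicate block changed no call of a member in a treatment comparison: 0 in each, with 10 at an unadjusted p under 0.05 for aldosterone.

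Signs turned as follows. With aldosterone Kcnj15 was -0.26 in batch 2 alone. In kidney on low salt Kcnk5 was -0.0036 with the replicate block and -0.12 in batch 2, Kcnj15 -0.29 and Kcne3 -0.12 in batch 1, and Kcnmb4 0.095 in batch 2. In heart Kcnk2 was 0.015 without a batch term and 0.18 in batch 2, Kcnj16 0.11 with the replicate block, Kcnip2 0.10 and Kcnj5 0.48 in batch 1, and Kcnj12 -0.18 and Kcnj8 0.078 in batch 2. Between tissues Kcnmb4 was 0.63 with library totals and passed lower in the low-salt libraries (-0.65) and in all 16 (-0.46). For kidney minus heart Kcnma1 was 0.063 without a batch term.

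Leaving out single libraries also turned signs, over these ranges: with aldosterone Kcnj15 -0.15 to 0.46 and Kcnk5 -0.54 to 0.15; in kidney on low salt Kcnk5 -0.30 to 0.26 and Kcne3 -0.050 to 0.14; in heart on low salt Kcnj8 -0.19 to 0.021, Kcnk2 -0.20 to 0.083, Kcnj16 -1.46 to 1.82, Kcnj12 -0.031 to 0.12, Kcnq1 -0.020 to 0.078, Kcnj5 -0.21 to 0.10, Kcnd3 -0.011 to 0.13 and Kcnip2 -0.26 to 0.0084; for kidney minus heart Kcnj1 -0.95 to 4.45, Kcnj16 -1.54 to 1.83 and Kcnma1 -0.47 to 0.14; for aldosterone minus low salt Kcnj16 -0.061 to 0.27, Kcnma1 -0.33 to 0.15 and Kcnq1 -0.29 to 0.071.

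Of all genes, kidney low salt gave 201 higher and 253 lower calls, against 823 and 872 by DESeq2, 80 and 85 without a batch term, 30 and 22 with the replicate block and 0 and 0 in batch 1 alone; heart gave 2 and 6, against 189 and 114 by DESeq2, 48 and 37 with no filter, and 0 and 0 with the block; aldosterone gave 0 and 0, against 299 and 74 by DESeq2 and 4 and 0 with no filter. For kidney minus heart there were 73 and 88 calls, against 338 and 483 by DESeq2 and 9 and 7 with the block, and for aldosterone minus low salt 5 and 5, against 371 and 286 by DESeq2 and 27 and 25 with no filter. Levels near the threshold of 0.5 CPM rest on as few as 12.1 counts, which limits what can be seen for such members, and 4 rats per group limit small differences.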

Other observations

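The control rats and the kidney high-salt rats both ate 0.4% Na, in separate experiments whose tables were normalised separately, so their levels can be set side by side but were not tested. Kcnj1 stood at 843, 665, 750.4 and 323 CPM in control rats and 248, 432, 458 and 351 CPM in kidney high-salt rats, Kcnj16 at 215, 225, 246 and 189.7 CPM and 109.6, 190.4, 122 and 163 CPM, and Kcnq1 at 101, 108, 92.1 and 102 CPM and 54.99, 69.1, 64.6 and 56.7 CPM. For Kcnq1 every control value was the higher one, and for Kcnj16 the ranges overlapped between control replicate 4 and kidney high-salt replicate 2. Kcna2 went the other way, with 40.0, 85.7, 44.6 and 47.8 CPM in control rats and 61.3, 60.7, 109 and 109 CPM in kidney high-salt rats, the ranges overlapping at control replicate 2, as did Kcnt1, with 43.3, 44.2, 45.1 and 35.0 CPM and 44.4, 66.0, 89.1 and 77.4 CPM, overlapping at kidney high-salt replicate 1. Kcnk1 lay close in both, with 262, 215, 238 and 227 CPM and 248, 249, 229.3 and 261 CPM. The 2 sets also differ in Xist and Y-linked transcripts and in experiment, which cannot be told apart.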
